A study of Mus musculus with 2 samples.

Results

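The let-7a, let-7c and let-7f microRNAs (miRNAs) are each made from 2 places in the mouse genome, and their 6 genes, Mirlet7a-1, Mirlet7a-2, Mirlet7c-1, Mirlet7c-2, Mirlet7f-1 and Mirlet7f-2, were followed here in hippocampus. They were chosen by gene name among the 2202 miRNA genes counted, as the let-7 genes of these miRNAs, and not by their levels. Small RNA was sequenced from 2 libraries of tissue labelled layer of hippocampus, from male mice aged 25 days of the strain B6CASTF1/J, first-generation hybrids of C57BL/6J and CAST/EiJ mice. The labels give the libraries separate biosamples and call them biological replicates 1 and 2 of 1 group, but they share 1 donor entry, so part of the spread between them may be technical. There was no treated, mutant or second-tissue group. The comparisons available are therefore copy against copy, the 6 genes against the rest of the let-7 family and of their gene clusters, and library against library.

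A let-7 gene is transcribed as a long primary RNA, cut to a hairpin by Drosha in the nucleus and to a short duplex by Dicer in the cytoplasm. One arm of the duplex, for let-7 usually the 5p arm, stays in an Argonaute protein and finds messenger RNAs through its seed, bases 2 to 8. Let-7 miRNAs restrain growth and stem cell messages such as Lin28a, Hmga2 and Myc, LIN28 proteins in turn block let-7 maturation, and mature let-7 accumulates as neural progenitors become neurons. The copies of a miRNA have different primary transcripts, so each may be switched on separately, although the 5p product is the same.

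The 5p sequences are shown because they are what the copies share. RefSeq (build GRCm38.p6) gives them as follows, 5′ to 3′, with the seed in capitals.
let-7a-5p: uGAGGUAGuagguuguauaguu
let-7c-5p: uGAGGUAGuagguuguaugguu
let-7f-5p: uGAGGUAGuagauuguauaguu

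The seed was the same in these sequences and in the 5p sequences of the other 6 family genes, let-7b, let-7d, let-7e, let-7g, let-7i and miR-98. Counting from 1 at the 5′ end of let-7a, let-7c differs from let-7a at 1 base (A19G) and let-7f at 1 base (G12A). Let-7e also differs from let-7a at 1 base (U9G), and let-7c differs from let-7b at 1 base (A17G, written from let-7c to let-7b). The let-7a-5p sequence was found in the hairpins of Mirlet7a-1 and Mirlet7a-2, that of let-7c-5p in Mirlet7c-1 and Mirlet7c-2, and that of let-7f-5p in Mirlet7f-1 and Mirlet7f-2.

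The 3p sequences, of the other arm, are shown because they tell most copies apart. They are given with bases 2 to 8 in capitals.
let-7a-1-3p: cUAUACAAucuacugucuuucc
let-7c-2-3p: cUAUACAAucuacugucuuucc
let-7a-2-3p: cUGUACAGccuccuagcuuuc
let-7c-1-3p: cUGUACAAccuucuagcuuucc
let-7f-1-3p: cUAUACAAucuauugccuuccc
let-7f-2-3p: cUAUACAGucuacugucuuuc

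Between let-7a-1-3p and let-7c-2-3p there are 0 differences, so Mirlet7a-1 shares its 3p sequence with a gene of another miRNA. Both mature sequences of Mirlet7a-1 and both of Mirlet7c-2 thus lie in another miRNA gene as well. The 3p sequences of Mirlet7a-2, Mirlet7c-1, Mirlet7f-1 and Mirlet7f-2 were found in no miRNA gene at another place, on either strand. Gm24111, annotated over Mirlet7f-1 on the other strand, covers the same place as its 3p sequence.

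The hairpins are printed with capitals for every base that lies in a stretch of 20 or more bases found on either strand of a miRNA gene elsewhere. Their gene coordinates and sequences were the same in GENCODE M21 and RefSeq.
Mirlet7a-1: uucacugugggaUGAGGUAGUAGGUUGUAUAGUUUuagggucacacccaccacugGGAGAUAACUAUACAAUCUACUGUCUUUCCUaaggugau
Mirlet7a-2: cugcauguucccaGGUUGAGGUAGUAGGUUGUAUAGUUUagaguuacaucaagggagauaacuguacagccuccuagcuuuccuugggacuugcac
Mirlet7c-1: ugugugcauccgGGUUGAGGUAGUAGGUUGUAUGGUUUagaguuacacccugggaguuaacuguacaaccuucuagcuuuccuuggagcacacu
Mirlet7c-2: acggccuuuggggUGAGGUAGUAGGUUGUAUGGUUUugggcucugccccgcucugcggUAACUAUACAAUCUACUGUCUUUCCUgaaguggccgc
Mirlet7f-1: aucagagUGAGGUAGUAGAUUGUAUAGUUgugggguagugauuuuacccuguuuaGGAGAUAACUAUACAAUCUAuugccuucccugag
Mirlet7f-2: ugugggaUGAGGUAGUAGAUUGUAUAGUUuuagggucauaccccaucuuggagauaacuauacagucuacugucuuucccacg

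Mirlet7a-1 had the most shared bases, 54 of 94, and Mirlet7c-2 had 49 of 95. Mirlet7f-1 had 42 of 89, of which 20, reaching into its 3p sequence, lie also in Mirlet7a-1. Mirlet7a-2 had 26 of 96, Mirlet7c-1 26 of 94 and Mirlet7f-2 22 of 83. A 5p sequence of 22 bases lies at more than 1 place, but with its neighbouring hairpin bases it becomes specific to 1 gene. For the let-7f copies 1 added base at the 3′ end was enough, and for the let-7a and let-7c copies 2 were needed. At the 5′ end 1 added base was enough for each of the 6 genes. The 3p sequence that Mirlet7a-1 and Mirlet7c-2 share became specific with 2 added bases at the 3′ end.

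**Figure D1:**
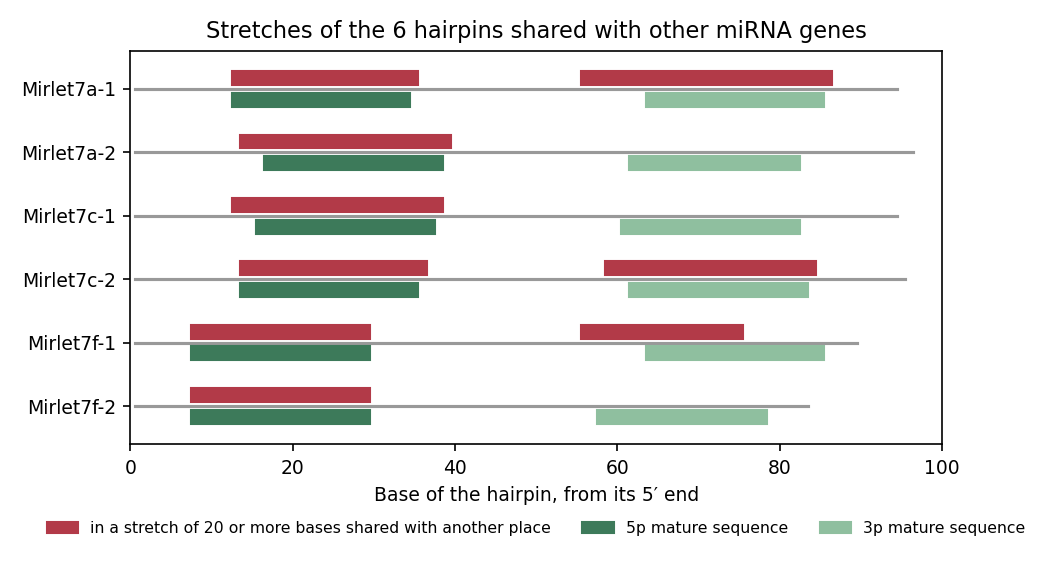
Each line is 1 hairpin, and the x axis counts its bases from the 5′ end. Red boxes mark stretches of 20 or more bases found in a miRNA gene elsewhere, and green boxes mark the 5p (dark) and 3p (light) mature sequences: red covers the 5p sequence in each of the 6 genes, the whole 3p sequence in Mirlet7a-1 and Mirlet7c-2, and part of it in Mirlet7f-1.

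The 6 genes lie in 5 clusters on 5 chromosomes of mm10 (GRCm38). Mirlet7a-1 (ENSMUSG00000065421.3), at chr13:48538179-48538272 on the minus strand, and Mirlet7f-1 (ENSMUSG00000105621.1), at chr13:48537829-48537917 on the minus strand, are 261 bases apart in an exon of the noncoding RNA gene 6720427I07Rik, with Mirlet7d in the same exonic stretch. Mirlet7a-2 (ENSMUSG00000092770.1), at chr9:41536716-41536811 on the plus strand, lies in an intron of the noncoding genes Gm49317 and 3110039I08Rik, between Mir100 and Mir125b-1. Mirlet7c-1 (ENSMUSG00000065557.3), at chr16:77599657-77599750 on the plus strand, lies in an intron of the noncoding gene Mir99ahg, 656 bases from Mir99a. Mirlet7c-2 (ENSMUSG00000065608.1), at chr15:85706603-85706697 on the plus strand, lies within an exon of Lncppara, a noncoding RNA gene, 621 bases from Mirlet7b. Mirlet7f-2 (ENSMUSG00000065602.1), at chrX:151912346-151912428 on the plus strand, is in an intron of Huwe1, which encodes a ubiquitin ligase, and Mir98 follows 785 bases on.

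Sense-strand reads credited to miRNA genes numbered 5183641 in replicate 1 and 5871233 in replicate 2. Reads aligned to several places were held apart from the gene counts and numbered 6059074 and 6908203, or 43.6% and 43.2% of all reads. The levels below cover assigned reads only, and the 5p sequences of the 6 genes lie at more than 1 place. How many of them came from the let-7a, let-7c and let-7f genes is not given by the counts. Of 11 neuron-enriched marker genes, 8 were detected (at least 10 counts in both libraries), among them Mir124a-1 with only 16 and 12 counts. The 11 summed to 32606 and 34437 counts per 1000000 gene-assigned counts (CPM), of which Mir132 alone gave 14669 and 19562 CPM. The miR-9 genes were low, with 106 and 66.1 CPM for Mir9-3, 13.7 and 11.6 CPM for Mir9-1, and 0.772 and 1.87 CPM for Mir9-2. The 3 genes of the neuronal miRNA miR-124, which are also copies of 1 miRNA, were near 0, at 16, 0 and 2 counts in replicate 1 and 12, 1 and 9 counts in replicate 2. The 7 markers of other cells and tissues summed to 6118 and 6635 CPM, most of it the endothelial Mir126a, and the muscle gene Mir133a-1 had 0 counts in both.

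All 6 genes had assigned counts in both libraries, from 93.3 to 2597 CPM on average, and they kept 1 order in both. Mirlet7c-2 came first, followed by Mirlet7f-2, Mirlet7c-1, Mirlet7a-1, Mirlet7f-1 and Mirlet7a-2. Mirlet7c-2 had 2353 CPM in replicate 1 and 2841 CPM in replicate 2, from 12197 and 16678 counts, a mean of 2597 ± 345 CPM (SD, n = 2). Mirlet7f-2 had 1587 and 2305 CPM, from 8226 and 13536 counts, a mean of 1946 ± 508 CPM. The ranges of mean ± SD of these top genes overlapped, although Mirlet7c-2 was higher within each library by 651 ± 163 CPM (SD of the gap, n = 2). The overlap depended on how the libraries were scaled. With edgeR's TMM (trimmed mean of M-values), the values were 2587 ± 127 CPM for Mirlet7c-2 and 1928 ± 345 CPM for Mirlet7f-2, and the ranges were apart, as they were with DESeq2 size factors.

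Mirlet7c-1 had 684 and 669 CPM, from 3548 and 3930 counts, with a mean of 677 ± 10.7 CPM. Mirlet7a-1 had 276 and 389 CPM, from 1431 and 2285 counts, with a mean of 333 ± 80.0 CPM. Both stood in the middle of the 6, without overlap between their library values. Mirlet7f-1 had 115 and 131 CPM, from 597 and 771 counts, with a mean of 123 ± 11.4 CPM. Mirlet7a-2 had 93.4 and 93.2 CPM, from 484 and 547 counts, with a mean of 93.3 ± 0.145 CPM. The small SDs of Mirlet7a-2 and Mirlet7c-1 depended on the scaling as well, and under TMM they were 7.98 and 67.6 CPM. Mirlet7f-1 was above Mirlet7a-2 by 30.0 ± 11.6 CPM, and the ranges of mean ± SD of these and of all other neighbours in the order but the top ones were apart. With 2 libraries these SDs are rough, and no test between genes was made.

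**Figure D2:**
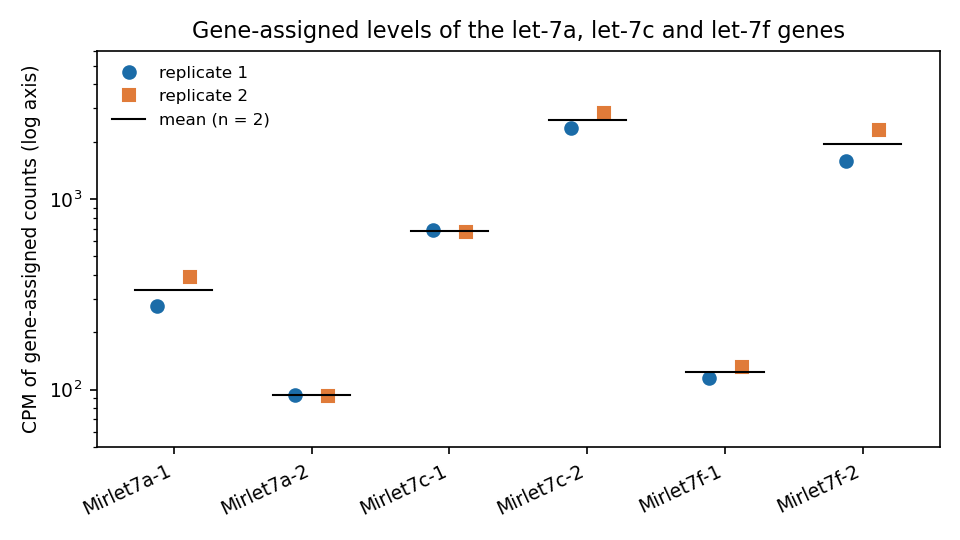
Level of each gene in CPM of the gene-assigned counts, on a log axis, with a circle for replicate 1, a square for replicate 2 and a bar for their mean. Mirlet7c-2 and Mirlet7f-2 lie between 1587 and 2841 CPM, and Mirlet7a-2 lies lowest, at 93.4 and 93.2 CPM.

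Among the 445 detected genes, ranked by mean CPM, the 6 took ranks 61 (Mirlet7c-2), 71 (Mirlet7f-2), 121 (Mirlet7c-1), 150 (Mirlet7a-1), 186 (Mirlet7f-1) and 193 (Mirlet7a-2). Their median of 505 CPM stood beside a median of 51.2 CPM over all detected genes. The genes nearest to them in log2(CPM + 1) over the 2 libraries, by Euclidean distance and outside the let-7 family and its clusters, were Mir676 for Mirlet7c-2 (distance 0.062), Mir341 for Mirlet7f-2 (0.10), Mir92-1 for Mirlet7c-1 (0.14), Mir1843a for Mirlet7a-1 (0.16), Mir325 for Mirlet7f-1 (0.10) and Mir30b for Mirlet7a-2 (0.15). Likeness over 2 libraries is little more than a like level.

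How were the counts split between the copies? Each miRNA had 1 copy with at least 74.7% of the assigned counts in both libraries, and it was copy 1 for let-7a but copy 2 for let-7c and let-7f. The counts do not tell 5p from 3p reads, and the let-7a copies and the let-7c copies differ in whether their 3p sequence lies elsewhere. The split is therefore that of assigned reads and need not be that of the mature miRNA. Of the let-7a counts, Mirlet7a-1 held 74.7% in replicate 1 (exact Clopper-Pearson 95% interval 72.7 to 76.7) and 80.7% in replicate 2 (79.2 to 82.1), or 77.7% ± 4.21 (SD, n = 2). Mirlet7a-1 thus had 2.96 and 4.18 times the counts of Mirlet7a-2. Of the let-7c counts, Mirlet7c-1 held 22.5% (21.9 to 23.2) and 19.1% (18.5 to 19.6), or 20.8% ± 2.45. The rest lay on Mirlet7c-2, which had 79.2% on average. Of the let-7f counts, Mirlet7f-1 held 6.77% (6.25 to 7.31) and 5.39% (5.02 to 5.77), or 6.08% ± 0.974, and this was the most uneven of the splits, with 93.9% on Mirlet7f-2.

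The split kept its direction in both libraries, and the intervals of the 2 libraries were apart for each miRNA. Intervals cover the counting error of reads only, and no molecular identifiers are mentioned, so the SD is the better guide to the spread. The split does not depend on how the libraries were scaled. Between the let-7a copies and between the let-7c copies, the gene with more counts, Mirlet7a-1 and Mirlet7c-2, was the one whose mature sequences both lie elsewhere too. The let-7f copies do not differ in this way, since in each only the mature sequence common to the pair lies elsewhere. With stretches of 20 or more bases, Mirlet7f-1, which had fewer counts, had 42 of 89 bases shared, against 22 of 83 for Mirlet7f-2. This gap depended on the stretch length, with other lengths tried after the data were seen. With 18 bases it was 42 against 38, with 22 both copies had 22, and with 24 both had 0. The part of shared sequence in the splits was not tested. A read of a miRNA covers a mature sequence and not the hairpin, so levels were not divided by length, and dividing by hairpin length moved none of these splits by as much as its SD.

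**Figure D3:**
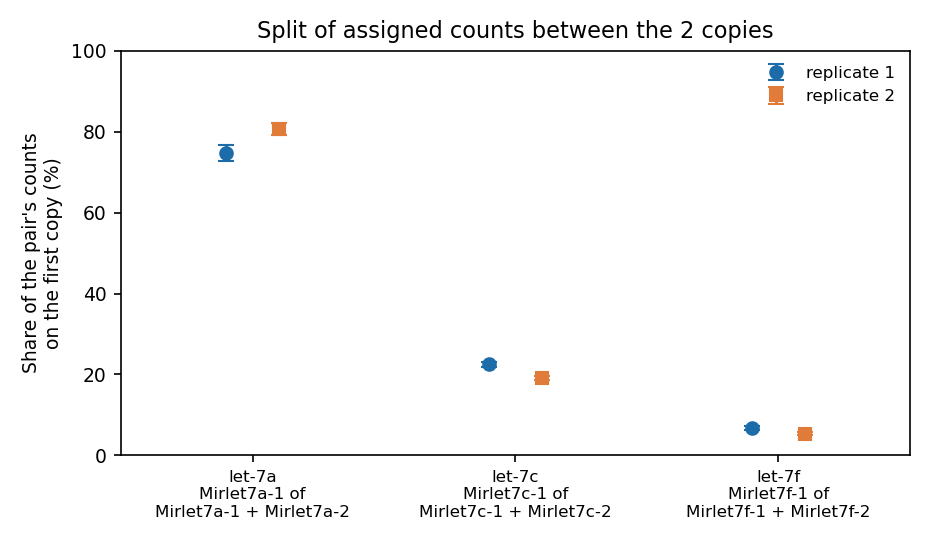
Share of each pair's assigned counts that lay on copy 1, in percent, with circles for replicate 1, squares for replicate 2 and bars for exact 95% binomial intervals. Mirlet7a-1 holds 74.7% and 80.7% of the let-7a counts, Mirlet7c-1 22.5% and 19.1% of the let-7c counts, and Mirlet7f-1 6.77% and 5.39% of the let-7f counts.

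The splits were set beside those of other miRNAs made from 2 loci. Shares are given for the copy with more counts, which largely sets the lower end of their range in advance. Lying within the range therefore says little. A mature sequence in exactly 2 miRNA genes was found for 47 gene pairs outside let-7, of which 20 had a summed count of at least 100 in both libraries. The copy with more counts over both libraries held a mean share of 77.7% for let-7a, 79.2% for let-7c and 93.9% for let-7f, against 52.1% to 100% over the 20 pairs, with a median of 77.2%. Of the 20 pairs, 10 were more even than let-7a and 4 more uneven than let-7f. The 10 include Mir26a-2 and Mir26a-1, whose order changed, with 29.4% on Mir26a-2 in replicate 1 and 97.7% in replicate 2. The pair at 100% was Mir101a and Mir101c, which share the miR-101c sequence, and Mir101c had 0 counts in both libraries. The 3 most abundant pairs were the neuron-enriched Mir138-1, with 69.4% ± 1.84 of the counts of its pair, Mir128-1 with 80.3% ± 0.411, and Mir219a-2, of an oligodendrocyte miRNA, with 99.9% ± 0.110. These shares too rest on assigned reads alone.

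By miRNA, the assigned counts of both copies summed to 426 ± 79.8 CPM for let-7a, 3274 ± 334 CPM for let-7c and 2069 ± 520 CPM for let-7f. Reads aligned to several places are not in these sums, and the counts do not tell the arms of the duplex apart. The sums are therefore those of assigned reads and need not follow the levels of the mature miRNAs. The 6 genes together had 5109 and 6429 CPM. They held 1.88% (exact 95% interval 1.86 to 1.90) and 2.16% (2.14 to 2.18) of the counts of the 12 let-7 family genes, or 2.02% ± 0.197. The rest lay on the 6 family genes with 1 locus. The means of the 6 genes ran from 93.3 to 2597 CPM, against 3171 CPM for Mir98 to 112671 CPM for Mirlet7b, and within each library all 6 lay below all 6 family genes with 1 locus. For each count on the 6 genes there were 229 reads aligned to several places in replicate 1 and 183 in replicate 2. The part of these reads in the gap between the 2-locus and the 1-locus genes was not tested.

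Within the clusters, each of the 6 genes had fewer counts than at least 1 neighbour, from 0.728% and 0.395% of that neighbour's counts in replicates 1 and 2 for Mirlet7f-1 beside Mirlet7d to 56.4% and 65.4% for Mirlet7f-2 beside Mir98. On chromosome 13, Mirlet7a-1 had 1.74% and 1.17% of the counts of Mirlet7d, above the shares of Mirlet7f-1 in both libraries. Mirlet7d, at 24546 ± 12336 CPM, itself differed 2.10-fold between the libraries, at 15824 CPM in replicate 1 and 33269 CPM in replicate 2. On chromosome 15, Mirlet7c-2 had 2.04% and 2.58% of the counts of Mirlet7b. On chromosome X, Mir98 had 3171 ± 504 CPM.

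Mirlet7a-2 and Mirlet7c-1 stand in clusters of the same make-up, each with a gene of the miR-99 and miR-100 family and a miR-125b gene. Mirlet7a-2 had 1.65% and 2.37% of the counts of Mir100 (4788 ± 1219 CPM) and 10.7% and 9.98% of those of Mir125b-1 (905 ± 41.2 CPM). Mirlet7c-1 had 1.93% and 3.05% of the counts of Mir99a (28653 ± 9508 CPM). Beside Mir125b-2 (434 ± 72.6 CPM), which like Mir125b-1 is a copy of miR-125b, Mirlet7c-1 was the higher gene, with 179% and 138% of its counts. It was the only one of the 6 genes to exceed a gene of its cluster outside the 6, in both libraries.

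**Figure D4:**
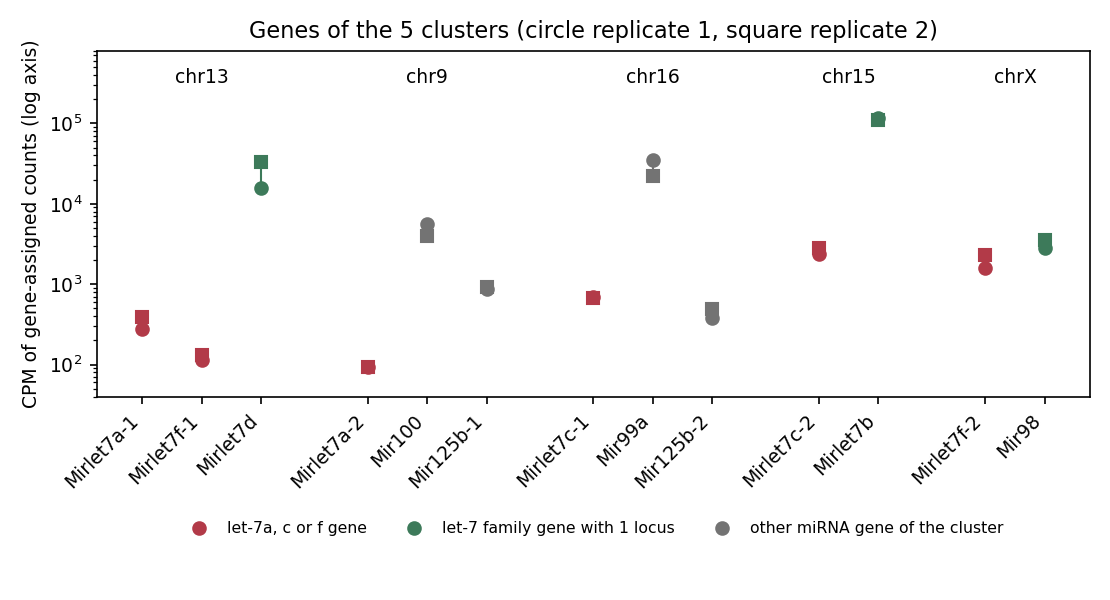
Level of the genes of the 5 clusters in CPM of the gene-assigned counts, on a log axis, with a circle for replicate 1 and a square for replicate 2 and the let-7a, let-7c and let-7f genes (red) left of their neighbours. Mirlet7d, Mirlet7b, Mir99a and Mir100 lie far above the red genes of their clusters, whereas Mirlet7f-2 lies near Mir98 and Mirlet7c-1 above Mir125b-2.

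How did the 6 genes differ between the 2 libraries? Of the 6, 4 were lower in replicate 1, Mirlet7f-2 by 0.54 and Mirlet7a-1 by 0.49 on the log2 scale with a pseudocount of 1 CPM, and Mirlet7a-2 and Mirlet7c-1 hardly differed. In a 2-sided exact binomial test with Benjamini-Hochberg adjustment over 472 genes, 59.7% of genes were called, 39.4% as higher in replicate 2. Of the 6 genes 4 were called, all as higher in replicate 2. Calls depend on depth, and each of the 6 averaged at least 100 counts. Of the 291 genes that did so, 241 were called, 160 of them as higher in replicate 2. The calls therefore do not set the 6 genes apart. The log2 ratio of replicate 1 over replicate 2 was -0.54 for Mirlet7f-2 (exact binomial test, adjusted p = 4.02e-160), -0.49 for Mirlet7a-1 (adjusted p = 2.97e-24), -0.27 for Mirlet7c-2 (adjusted p = 5.59e-56) and -0.19 for Mirlet7f-1 (adjusted p = 0.0298). It was 0.03 for Mirlet7c-1 (exact binomial test, adjusted p = 0.440) and 0.0031 for Mirlet7a-2 (adjusted p = 1). As plain ratios of CPM, without log2 or pseudocount, these were 1.02 (exact 95% interval 0.977 to 1.07) and 1.00 (0.885 to 1.13). Those intervals cover counting error only, with libraries scaled by their gene-assigned totals.

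This test compares 2 libraries and leaves out the spread between samples. From these same 2 libraries, edgeR put that spread at a biological coefficient of variation of 0.320. Technical spread cannot be told apart in this value. The median log2 ratio was -0.23 over the 6 genes, -0.23 over the 6 family genes with 1 locus and -0.16 over all 472 genes. Under TMM scaling, which adds about 0.17 to each ratio, Mirlet7f-1 had a log2 ratio of -0.02 and was not called (adjusted p = 0.894), and Mirlet7c-1 had 0.20 and was called (adjusted p = 3.98e-09). The ratios of Mirlet7a-1, Mirlet7c-2 and Mirlet7f-2 remained negative and called, so 4 of 6 were called again, beside 58.9% of all genes with TMM and 58.1% with DESeq2 size factors.

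**Figure D5:**
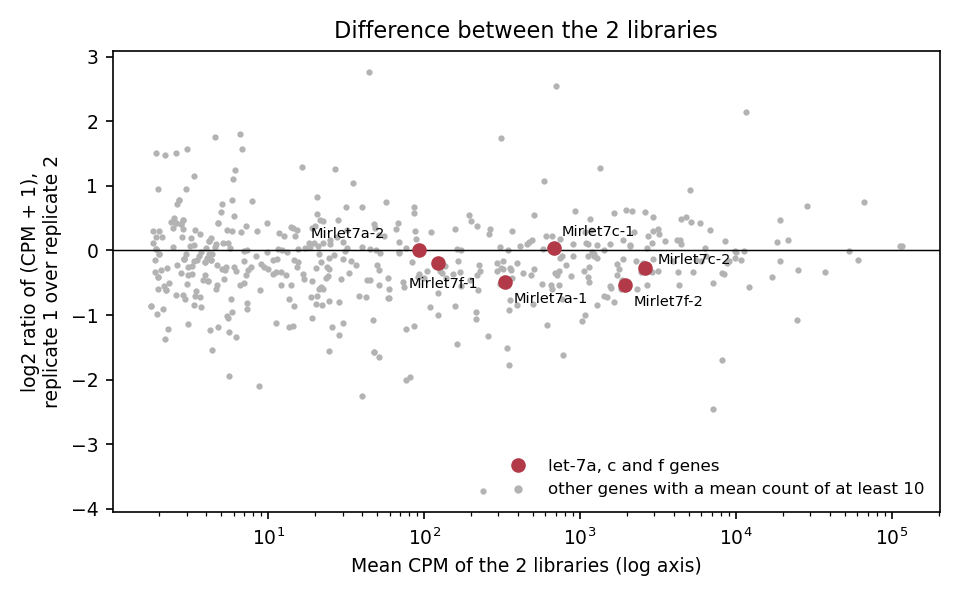
Log2 ratio of CPM + 1 in replicate 1 over replicate 2 (y axis) against the mean CPM (log x axis), with 1 point for each of the 472 genes that had a mean count of at least 10. The let-7a, let-7c and let-7f genes (red) lie between -0.54 and 0.03, inside the cloud of the other genes, which runs from -3.73 to 2.77.

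Among the 6 genes, the raw count differed between the sense and the unstranded columns for Mirlet7f-1 alone. The annotation places the miRNA gene Gm24111 over it on the plus strand, at chr13:48537825-48537921. On its own strand Mirlet7f-1 had 597 and 771 counts and Gm24111 had 0 and 0. In the column for the opposite strand Gm24111 had the same 597 and 771, and in the column that ignores strand both genes had 0. The other 5 genes had equal counts on their own strand and without regard to strand, and 0 on the opposite strand.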

How the data were processed

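Raw read counts per miRNA gene were deposited by the authors for 2 libraries, as 3 columns: unstranded, sense and antisense to the gene. Per the text files deposited with them, the build was mm10 and the annotation GENCODE M21. The aligner, the counter and their settings, mismatches allowed included, are not stated in the sources used here. The labels give a size range under 30 bases. The sense column was used, without the 4 rows that name no gene, which were 62.7% and 63.3% of reads. All 2202 gene identifiers matched GENCODE M21, and 969 of 1005 RefSeq hairpins had the coordinates of a counted gene. Shared stretches were searched among these miRNA genes and not in the whole genome, and the CAST/EiJ alleles were not analysed here.

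CPM were computed over the gene-assigned total. With 1 group, the quasi-likelihood test of edgeR 4.0.16 (R 4.3.3) has no coefficient, so it gave only TMM scaling and a common dispersion, and DESeq2 1.42.0 gave alternatives. Libraries were compared with exact binomial tests (scipy 1.17.1) for genes averaging at least 10 counts, at an adjusted p threshold of 0.05. The tests were tried on simulated Poisson counts, which hold no spread between libraries beyond counting error. That trial therefore says nothing of false calls in these data. A chi-square of 665 per degree of freedom showed that the tables are not 1 library deposited as 2. A count of 0 allows up to 0.579 and 0.511 CPM (3 counts, counting error only).

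The genes and lists were chosen with earlier results of these data known. Named were the 6 genes, the 6 family genes with 1 locus, the other genes of their clusters, the nearest gene to each and the 3 most abundant other pairs. Mir126a, Mir132, the miR-9 genes and the miR-124 genes come from the marker list. Gm24111, the Mir26a pair and the pair of Mir101a and Mir101c were named after their values were seen.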

Additional observations from a re-analysis of the deposited data

Results flagged for a closer look

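Reads aligned to several places belong to no gene count and were not analysed by gene. They numbered 6059074 in replicate 1 (1.17 for each gene-assigned count) and 6908203 in replicate 2 (1.18). They were also 4.30 and 3.95 times the assigned counts of all 12 let-7 family genes.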

How the results depend on the processing

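With the reads aligned to several places added to the total, the mean levels were 153 CPM for Mirlet7a-1, 42.9 CPM for Mirlet7a-2, 312 CPM for Mirlet7c-1, 1195 CPM for Mirlet7c-2, 56.7 CPM for Mirlet7f-1 and 895 CPM for Mirlet7f-2, lower because the total is larger. In the column that ignores strand, Mirlet7f-1 had 0 CPM and 0% of the let-7f counts, Mirlet7a-2 had 99.5 CPM and Mirlet7c-1 722 CPM, and the log2 ratio of Mirlet7a-2 changed sign to -0.0085 (exact binomial test, adjusted p = 0.983). Mirlet7a-2 had 93.4 ± 7.98 CPM with TMM and 93.5 ± 8.51 CPM with DESeq2 scaling, against an SD of 0.145 CPM with the gene-assigned total. The number of the 6 genes called between the libraries was within 1.5 times the reported 4 under each of the 5 alternatives, although TMM and DESeq2 scaling exchanged Mirlet7f-1 for Mirlet7c-1. The biological coefficient of variation was 0.335 from the median dispersion over genes of DESeq2, and 0.317 with edgeR for genes averaging at least 100 counts. Each value that left out 1 replicate lay within 1 SD of the mean, as it must with 2 libraries. Stretch lengths of 18, 22 and 24 bases were added after seeing the data, and with 24 only Mirlet7a-1 and Mirlet7c-2, with 26 bases each, still shared a stretch. No paired analysis was possible because both libraries belong to 1 group. Depth limits Mirlet7a-2 and Mirlet7f-1 most, with 484 to 771 counts in a library.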
